A study of Mus musculus with 27 samples.

Results

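Small leucine-rich proteoglycans (SLRPs) are secreted matrix proteins with a curved core of leucine-rich repeats, and many of them carry glycosaminoglycan chains. They bind fibrillar collagens and set how fibrils assemble and how thick they become, and several also bind TGF-β or receptors of innate immunity. In the heart they are made mainly by fibroblasts, the interstitial cells that lay down the collagen network around cardiomyocytes. Described here are the transcripts of 9 SLRP genes, chosen by symbol among the 22855 genes of the count tables: Dcn (decorin), Bgn (biglycan), Aspn (asporin), Lum (lumican), Fmod (fibromodulin), Prelp, Omd (osteomodulin), Ogn (osteoglycin) and Podn (podocan). All 9 had counts in both tissues and passed the filter on low counts in the fits reported.

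The study asked how gene expression in cardiac fibroblasts changes from birth to old age. RNA was sequenced from untreated C57Bl/6 mice at postnatal day 1 (P1), at 4 and at 14 weeks, at 1 year, and in old mice of 1.5 years. The 12 fibroblast samples (3 at P1, 3 at 4 weeks and 2 at each later age) were cells sorted by flow cytometry for the surface receptor PDGFRα from digested ventricles, with atria and valves removed. The 15 whole hearts (3 at each age) were unsorted tissue. Sex, and whether animals were pooled, were not given for these samples, so p-values measure the spread between the samples as labelled.

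Levels are CPM, the counts of a gene scaled to a library of 1e+06 counts, after scaling by trimmed mean of M values (TMM) within each tissue, and changes are log2 fold changes with their standard error (SE) from edgeR's quasi-likelihood test. A gene was called when its p-value, adjusted over all genes tested in that tissue, was below 0.05. Comparisons that start from P1, from 4 weeks or from 14 weeks share those samples with each other.

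The libraries held 46091271 to 76758831 counts. Pdgfra itself stood at 784 to 1367 CPM in the sorted cells and at 28.6 to 62.0 CPM in whole hearts, and Tcf21, a fibroblast transcription factor, at 155 to 376 CPM in the sorted cells. Some libraries stood apart in other ways. The summed CPM of 9 cardiomyocyte markers was 792 to 903 in the P1 fibroblasts and 17.4 to 198 in the older ones, and the sum of 9 endothelial markers was 2063 in replicate 3 of the 4-week fibroblasts against 614 and 723 in the other 4-week samples. Genes with transcripts under 38% GC were low in replicate 2 of the 4-week hearts: their median deviation, less that of genes over 58% GC, was -1.29 on the log2 scale, against -0.65 to 0.59 in the other hearts. The same measure was 0.63 and 0.69 in both 14-week fibroblast samples and -0.28 to 0.04 in all other fibroblast samples. Xist, expressed from the inactive X of female cells, was at most 0.57 CPM at 14 weeks and 1 year in both tissues, whereas the Y-linked Ddx3y was at most 0.40 CPM at 1.5 years, so sex and age cannot be told apart in any comparison of 1.5 years with 14 weeks. Both genes were above those levels in every P1 and 4-week sample, so the balance of the sexes also moved in the other comparisons of those ages with later ones. Of 5 sex-linked genes, 3 were called higher and 1 lower in fibroblasts at 14 against 4 weeks, and 1 higher and 4 lower at 1.5 years against P1. In hearts 1 was called lower at 14 against 4 weeks and 4 at 1.5 years against P1. The part of sex in the SLRP changes was not tested.

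SLRP transcripts made up a growing share of fibroblast counts up to 14 weeks. The 9 genes together took 0.71% to 0.83% of all counts in the P1 fibroblasts and 1.39% to 1.82% at 4 weeks. They took 2.53% and 2.72% at 14 weeks, 2.58% and 2.46% at 1 year, and 2.57% and 2.18% at 1.5 years. The 14-week samples are those in which low-GC genes stood high, and the part of this in the share was not tested. From 4 to 14 weeks Dcn, the member with most counts there, changed by 0.76, and by 0.23 with offsets for transcript length and GC. In whole hearts the share was 0.073% to 0.087% at P1, 0.092% to 0.15% at 4 weeks and 0.075% to 0.092% at 14 weeks. It was 0.097% to 0.13% at 1 year and 0.12% to 0.15% at 1.5 years. The shares at 14 weeks overlapped those at P1. Mitochondrial genes took 27.7% to 34.5% of heart counts at 14 weeks and 10.8% to 13.7% at P1. After TMM scaling the 9 genes summed to 494 to 617 CPM in P1 hearts and 958 to 1056 CPM at 14 weeks, without overlap. Fewer cells of a type and less RNA per cell cannot be told apart in such bulk samples. Across the 5 ages, all 9 members were called in fibroblasts, where 19.9% of the genes tested were, and 7 of 9 were called in hearts, where 34.3% were. The exceptions in hearts were Fmod and Omd. With length and GC offsets 7 were called in fibroblasts, without Ogn (adjusted p = 0.169) and Omd (adjusted p = 0.0784), and with 1 heart left out 5 to 7 were called in hearts.

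Compared per kilobase of exon, decorin and biglycan were the most abundant members at every age in fibroblasts. Exon here means all annotated exons of a gene joined, 6099 bases for Bgn and 5838 for Dcn. Their longest transcripts are 2666 and 4692 bases, so the order of Bgn and Dcn depends on the length used. At P1 the mean was 420 CPM per kb for Bgn and 414 for Dcn, which did not differ beyond their spread, followed by 320 for Aspn, 240 for Lum, 224 for Ogn and 124 for Prelp. Fmod, Omd and Podn stood far below, at 6.93, 1.83 and 0.98 CPM per kb. At 1.5 years the order of the abundant members had changed: Dcn (2008 CPM per kb) and Bgn (1428) were followed by Lum (721), Ogn (493) and Prelp (461), and Aspn (114), which only Bgn and Dcn exceeded at P1, now stood below all 5 of these. Podn (60.7) then stood above Fmod (12.3) and Omd (8.05). At 1.5 years Ogn (484 and 502 CPM per kb) and Prelp (439 and 482) stood closest to each other.

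**Figure D1:**
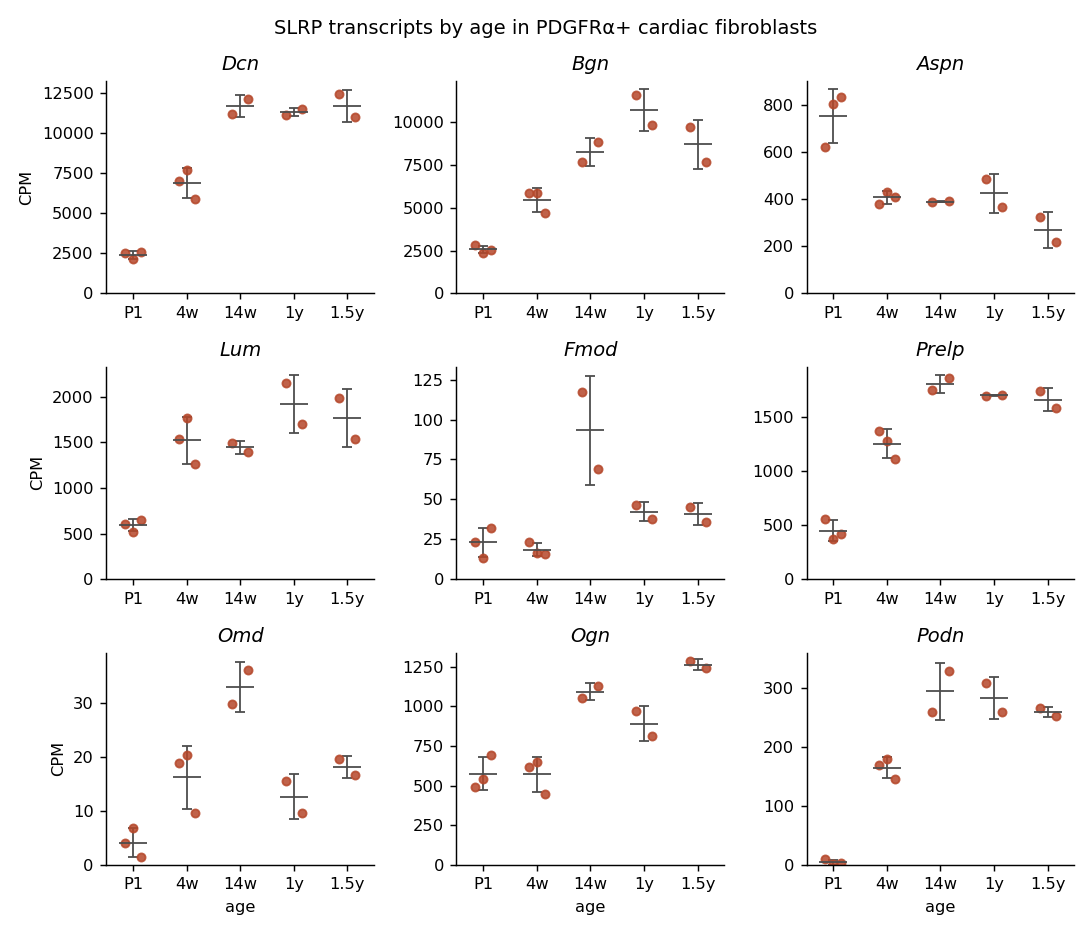
CPM of each SLRP gene (vertical axes, each starting at 0) against age in the PDGFRα+ fibroblasts; points are samples, dashes the mean and bars the SD. Dcn rises from 2126 to 2598 CPM at P1 to 11004 CPM and above at 1.5 years, Podn from under 10 CPM to over 250, and Aspn runs the other way.

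The class I members decorin, biglycan and asporin went in opposite directions with age. Decorin binds collagen fibrils and TGF-β and limits the lateral growth of fibrils. Dcn was at 2529, 2126 and 2598 CPM in the P1 fibroblasts, at 7046, 7729 and 5914 CPM at 4 weeks, at 11199 and 12180 CPM at 14 weeks, at 11147 and 11510 CPM at 1 year, and at 12447 and 11004 CPM at 1.5 years. The P1, 4-week and later groups did not overlap, and the 3 later ages did overlap each other. Dcn rose by 1.51 ± 0.14 (SE) from P1 to 4 weeks (adjusted p = 9.78e-06) and by 0.76 ± 0.15 from 4 to 14 weeks (adjusted p = 0.015). In the same step 5 of 8 leukocyte markers fell, beside 2.08% of all genes (summed 308 to 514 CPM at 4 weeks and 38.7 to 56.4 at 14 weeks). The 9 endothelial markers summed to 1336 and 1639 CPM at 14 weeks, and the part of either list in the changes was not tested. The second step was 0.23 (adjusted p = 0.75) with offsets for transcript length and GC. Dcn transcripts are 37.4% GC, and the 14-week fibroblast libraries are those in which low-GC genes stood high.

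Biglycan is close to decorin in sequence, and its soluble form can signal through Tlr2 and Tlr4. Bgn was at 2801, 2379 and 2514 CPM at P1, at 5892, 5888 and 4672 CPM at 4 weeks, at 7672 and 8830 CPM at 14 weeks, at 11589 and 9868 CPM at 1 year, and at 9737 and 7688 CPM at 1.5 years. Its 2 highest values were the 1-year samples, but those at 14 weeks and 1.5 years overlapped. Bgn rose by 1.10 ± 0.15 from P1 to 4 weeks (adjusted p = 0.000228), and its change from 4 to 14 weeks was 0.59 ± 0.16 (adjusted p = 0.0665). The gene lies on the X chromosome.

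Asporin lacks the glycosaminoglycan attachment of its class and binds collagen and TGF-β1. Aspn was at 622, 802 and 835 CPM at P1, at 378, 432 and 411 CPM at 4 weeks, at 387 and 392 CPM at 14 weeks, at 483 and 365 CPM at 1 year, and at 323 and 216 CPM at 1.5 years. All 3 P1 samples were above every later sample. Aspn was the only member to fall from P1 to 4 weeks (-0.89 ± 0.17, adjusted p = 0.00318), and its change from P1 to 1.5 years was -1.48 ± 0.20 (adjusted p = 0.000197). Both calls held under every alternative run.

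Among the class II members, lumican and prolargin rose early while fibromodulin did not. Lumican binds collagen at a site it shares with fibromodulin, and PRELP (prolargin) bridges collagen and heparan sulfate of basement membranes. Lum was at 601, 517 and 647 CPM at P1 and at 1536, 1768 and 1262 CPM at 4 weeks, and ranged from 1398 to 2152 CPM afterwards. Prelp was at 559, 374 and 415 CPM at P1 and at 1373, 1286 and 1111 CPM at 4 weeks, and ranged from 1589 to 1869 CPM afterwards. Neither gene's P1 values overlapped those of any later age, and the rises from P1 to 4 weeks were 1.37 ± 0.16 for Lum (adjusted p = 8.24e-05) and 1.48 ± 0.15 for Prelp (adjusted p = 2.50e-05). Prelp shares 350 of its 3615 exon bases with an antisense gene, Gm15851, and reads of the pair cannot be separated here.

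Fibromodulin, which also guides collagen cross-linking, behaved differently. Fmod was at 23.5, 13.4 and 31.8 CPM at P1, at 23.4, 16.4 and 15.7 CPM at 4 weeks, at 117 and 69.1 CPM at 14 weeks, at 46.5 and 37.9 CPM at 1 year, and at 45.4 and 36.0 CPM at 1.5 years. The 14-week samples were the highest of all 12, and they differed from each other by more than those of any later age. Fmod rose by 2.33 ± 0.33 from 4 to 14 weeks (adjusted p = 0.0026), a change that was 2.33 with length and GC offsets as well. It was not called from P1 to 4 weeks (-0.31 ± 0.30) or from P1 to 1.5 years (0.83 ± 0.33, adjusted p = 0.114).

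Osteomodulin, first known from bone, was a low transcript. Omd was at 4.02, 6.89 and 1.42 CPM at P1, at 18.8, 20.4 and 9.54 CPM at 4 weeks, at 29.7 and 36.2 CPM at 14 weeks, at 15.5 and 9.61 CPM at 1 year, and at 19.5 and 16.7 CPM at 1.5 years. The P1 group did not overlap any other, and Omd rose by 1.98 ± 0.48 from P1 to 4 weeks (adjusted p = 0.0136). The adjusted p was 0.0578 when P1 and 4 weeks were fitted alone. From P1 to 1.5 years Omd rose by 2.14 ± 0.52 (adjusted p = 0.0123), and the adjusted p was 0.0804 when those 2 ages were fitted alone.

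The class III member osteoglycin (mimecan), like Fmod, was not called from P1 to 4 weeks and rose from 4 to 14 weeks. Ogn was at 493, 542 and 693 CPM at P1, at 616, 650 and 446 CPM at 4 weeks, at 1056 and 1132 CPM at 14 weeks, at 969 and 814 CPM at 1 year, and at 1288 and 1242 CPM at 1.5 years. The P1 and 4-week values overlapped (change -0.01 ± 0.16), and all later samples were above them. The rise from 4 to 14 weeks was 0.94 ± 0.18 (adjusted p = 0.0138), and it was 0.26 (adjusted p = 0.822) with length and GC offsets. From P1 to 1.5 years Ogn rose by 1.14 ± 0.18 (adjusted p = 0.00072), against 0.65 (adjusted p = 0.168) with those offsets. Ogn transcripts are 36.3% GC.

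The class V member podocan, which binds type I collagen, changed most. Podn was at 8.97, 1.29 and 2.35 CPM at P1, at 170, 179 and 145 CPM at 4 weeks, at 259 and 328 CPM at 14 weeks, at 308 and 258 CPM at 1 year, and at 265 and 253 CPM at 1.5 years. The lowest later sample, at 145 CPM, was far above the highest P1 sample. Podn rose by 5.28 ± 0.56 from P1 to 4 weeks (adjusted p = 3.49e-05) and stood 5.94 ± 0.59 above P1 at 1.5 years (adjusted p = 1.66e-05). Replicate 1 of the P1 fibroblasts held most of the P1 signal.

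Counted over the members, 6 of 9 rose from P1 to 4 weeks in fibroblasts (Dcn, Bgn, Lum, Prelp, Omd and Podn) and 1 fell, where 9.28% of all genes tested rose and 6.20% fell. From P1 to 1.5 years, 7 rose and 1 fell, against 9.86% and 6.46% of all genes. The median change of the members was 1.37 in the first comparison and 1.76 in the second, beside 0.00 for all genes in both. From 4 to 14 weeks 3 members rose (Dcn, Fmod and Ogn) and none fell, against 1.79% and 2.08% of all genes. Only Fmod of these 3 was called with length and GC offsets, and leaving out either 14-week sample ended the calls of Dcn and Ogn. In the comparisons of 1 year and of 1.5 years with 14 weeks, edgeR called 0 members in either direction (2 at an unadjusted p under 0.05 in each, Fmod and Omd at 1 year and Fmod and Aspn at 1.5 years), where 1.31% rose and 0.474% fell at 1 year and 1.91% rose and 0.816% fell at 1.5 years. At 1.5 years the changes from 14 weeks ran from -1.19 ± 0.37 (Fmod, adjusted p = 0.126) to 0.29 ± 0.19 (Lum, adjusted p = 0.541). DESeq2 called Fmod in that comparison (adjusted p = 0.0415) and 0 members at 1 year.

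**Figure D2:**
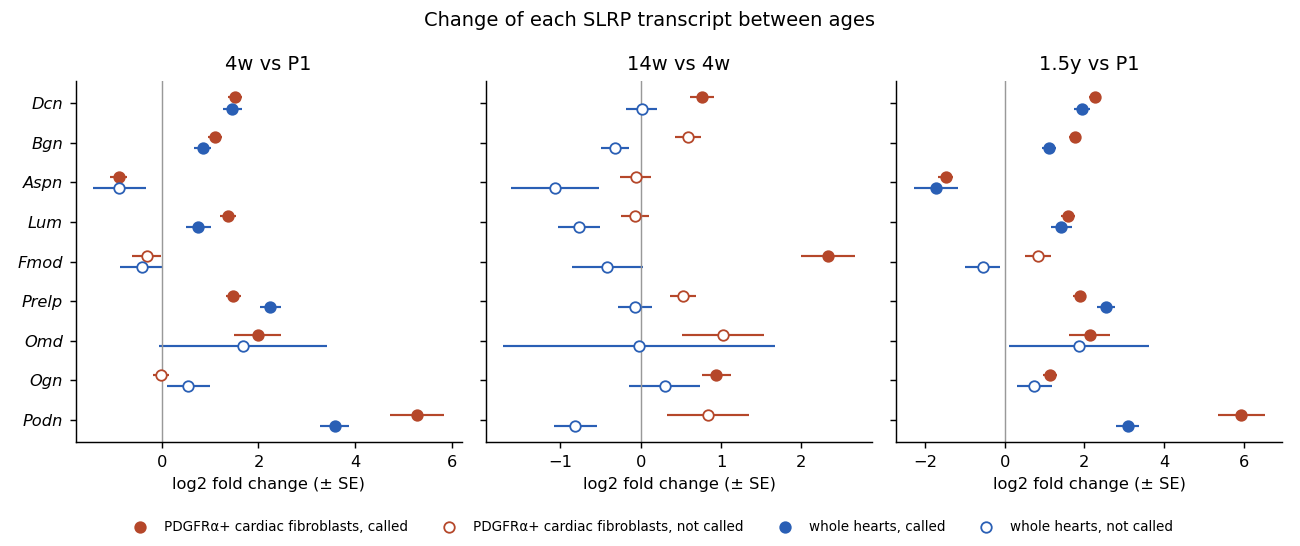
Log2 fold change with its SE (horizontal axes) of each SLRP gene for 3 comparisons of ages, in fibroblasts (red) and whole hearts (blue); filled points were called and open points were not. Podn changes most from P1 in both tissues, Aspn lies below 0 at 4w and 1.5y against P1, and Fmod stands out at 14w vs 4w in the fibroblasts alone.

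In whole hearts decorin, biglycan, prolargin and podocan rose between P1 and 4 weeks. Dcn was at 144, 144 and 216 CPM at P1 and at 421, 423 and 541 CPM at 4 weeks, a rise of 1.46 ± 0.20 (adjusted p = 6.07e-05). Prelp was at 14.0, 13.7 and 18.3 CPM at P1 and at 64.5 to 88.8 CPM at 4 weeks, a rise of 2.24 ± 0.22 (adjusted p = 1.96e-06). Podn was at 2.28, 3.01 and 2.32 CPM at P1 and at 26.2, 25.6 and 39.1 CPM at 4 weeks, a rise of 3.58 ± 0.30 (adjusted p = 2.99e-07). None of these 3 genes had a P1 heart that reached any older heart, and their calls at 4 weeks and at 1.5 years against P1 held under every alternative run. Bgn, at 186 to 217 CPM at P1 and 260 to 431 CPM at 4 weeks, rose by 0.85 ± 0.18 (adjusted p = 0.00268). The change of Bgn was 0.35 (adjusted p = 0.187) when libraries were scaled by their totals alone, a scaling that moved the median of all genes from -0.09 to -0.60.

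Lumican was highest in the oldest hearts. Lum was at 40.4, 38.7 and 71.7 CPM at P1, at 66.9, 68.6 and 120 CPM at 4 weeks, at 51.5, 52.2 and 46.0 CPM at 14 weeks, at 84.9, 96.4 and 62.1 CPM at 1 year, and at 152, 130 and 122 CPM at 1.5 years. The 3 hearts of 1.5 years were above all 12 younger hearts. Lum rose by 1.43 ± 0.26 from 14 weeks to 1.5 years (adjusted p = 0.00252), with Bgn (0.58 ± 0.18, adjusted p = 0.0408) the only other member called there, where 4.91% of genes rose and 7.86% fell. Sex and age cannot be told apart in this comparison. In it 5 of 8 fibroblast markers (median change 0.75) and 4 of 8 leukocyte markers (median change 0.97) rose, and their part in the change of Lum was not tested. Bgn lost that call when any of the 6 hearts compared or replicate 2 of the 1-year hearts was left out, and with the offsets (adjusted p from 0.0562 to 0.146). The rise of Lum from P1 to 4 weeks (0.76 ± 0.26, adjusted p = 0.0488) was lost in 9 of 15 fits that left out 1 heart.

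**Figure D3:**
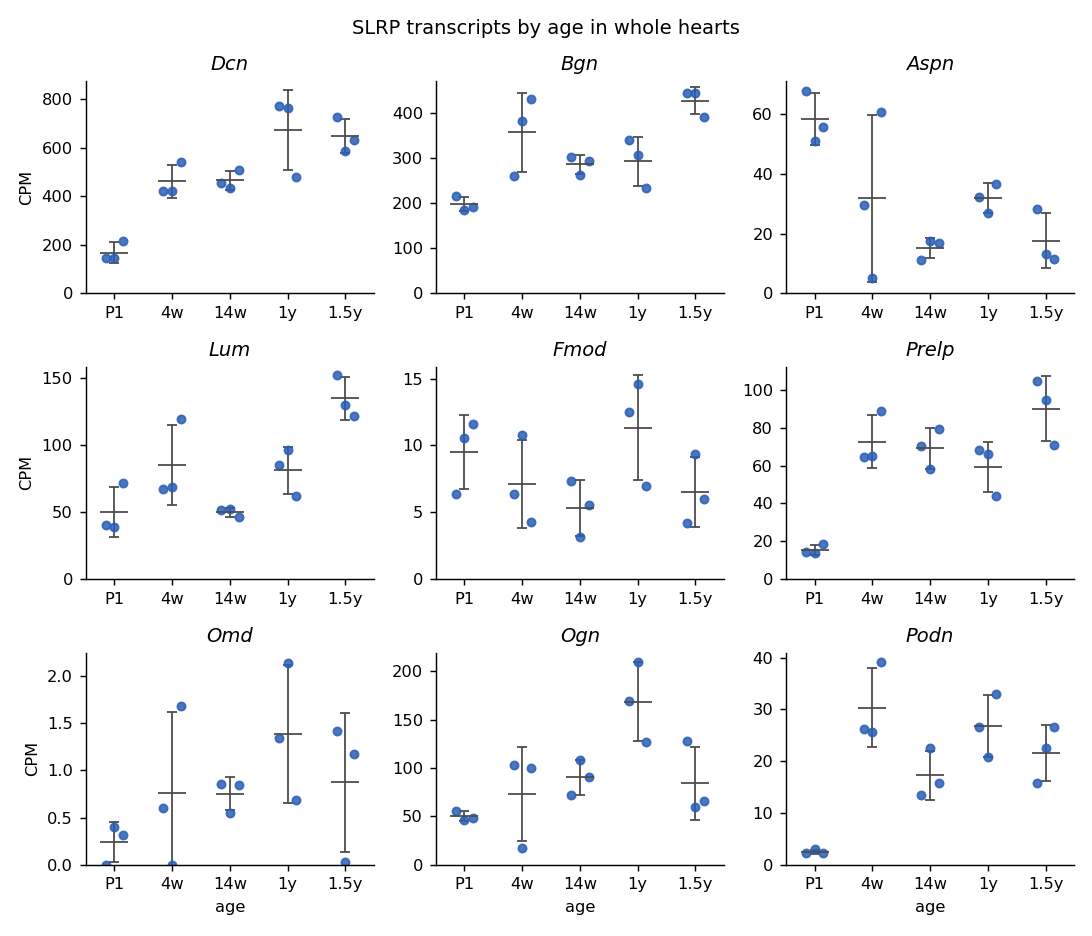
CPM of each SLRP gene (vertical axes, each starting at 0) against age in whole hearts; points are samples, dashes the mean and bars the SD. Dcn, Prelp and Podn step up between P1 and 4w, Lum is highest at 1.5y, and replicate 2 at 4w lies lowest of its group for Aspn (5.02 CPM), Omd (0 CPM) and Ogn (17.3 CPM).

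From P1 to 4 weeks, 5 members rose in hearts (Dcn, Bgn, Lum, Prelp and Podn) and none fell, against 12.1% and 6.10% of all genes. From P1 to 1.5 years the same 5 members rose and Aspn fell, against 15.6% and 16.3% of all genes. Aspn was at 67.9, 51.1 and 55.8 CPM in the P1 hearts and at 28.3, 13.1 and 11.4 CPM at 1.5 years, which did not overlap (-1.73 ± 0.56, adjusted p = 0.0263). That call was lost when either of 2 P1 hearts or either of 2 hearts of 1.5 years was left out, with adjusted p from 0.0534 to 0.0924. In hearts of 14 weeks against 4 weeks, and of 1 year against 14 weeks, edgeR and DESeq2 called 0 members (2 and 4 at an unadjusted p under 0.05), where 0.756% of genes rose and 0.850% fell in the first comparison and 0.389% rose and 0.583% fell in the second. Fmod lay between 3.14 and 14.6 CPM and Omd at or below 2.14 CPM in all hearts. The summed CPM of 8 fibroblast markers was 448 to 496 in the P1 hearts and 1527 to 2619 in the older ones, and its part in the heart values was not tested.

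Aspn, Omd and Ogn lie next to each other. On GRCm38 the plus strand of chromosome 13 carries Ecm2 (49504810 to 49532789), Aspn (49544443 to 49567565), Omd (49582462 to 49592822) and Ogn (49608046 to 49624501), all within the minus-strand gene Cenpp. Of their exons, only 7 bases of Aspn are shared with Cenpp. Dcn (chromosome 10, 97479609 to 97518143) and Lum (97565128 to 97572703) neighbour Kera and Epyc. Prelp (chromosome 1, 133910304 to 133921414) lies near Fmod (134037254 to 134048277), on the opposite strand. Over the 12 fibroblast samples the correlation of Aspn with the members beside it was -0.71 for Omd and -0.60 for Ogn (log2 CPM, described without a test), whereas r was 0.55 for Omd and Ogn, 0.94 for Dcn and Lum and 0.58 for Prelp and Fmod. Aspn had a negative r with all 8 other members (-0.36 to -0.86), and Dcn, Bgn, Lum, Prelp and Podn had r of 0.93 to 0.99 with each other. These points share the step between P1 and later ages.

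From P1 to 1.5 years in fibroblasts Aspn fell, Omd and Ogn rose, and Podn rose most. The calls of Omd and Ogn were lost in some alternatives, and neither was called in hearts in the main fit. Because the genes moved apart in fibroblasts, the promoters of these neighbours and of Podn are printed. Each is the RefSeq sequence on GRCm38.p6, from 250 bases before to 50 after the start of transcription, with every TATAAA (the TATA box) and GGGCGG (the GC box) of either strand in capitals.
Aspn, chr13:49544193-49544492, plus strand: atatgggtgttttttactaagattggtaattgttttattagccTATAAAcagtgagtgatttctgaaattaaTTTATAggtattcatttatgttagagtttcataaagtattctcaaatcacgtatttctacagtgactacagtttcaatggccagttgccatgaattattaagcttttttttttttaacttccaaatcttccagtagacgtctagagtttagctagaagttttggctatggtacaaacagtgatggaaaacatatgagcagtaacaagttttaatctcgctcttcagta
Omd, chr13:49582212-49582511, plus strand: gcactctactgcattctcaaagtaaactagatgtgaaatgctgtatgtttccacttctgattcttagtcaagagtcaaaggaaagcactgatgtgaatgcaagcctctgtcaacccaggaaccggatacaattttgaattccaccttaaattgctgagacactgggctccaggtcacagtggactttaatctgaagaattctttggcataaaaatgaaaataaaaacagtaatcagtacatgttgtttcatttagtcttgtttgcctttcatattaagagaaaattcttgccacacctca
Ogn, chr13:49607765-49608064, plus strand: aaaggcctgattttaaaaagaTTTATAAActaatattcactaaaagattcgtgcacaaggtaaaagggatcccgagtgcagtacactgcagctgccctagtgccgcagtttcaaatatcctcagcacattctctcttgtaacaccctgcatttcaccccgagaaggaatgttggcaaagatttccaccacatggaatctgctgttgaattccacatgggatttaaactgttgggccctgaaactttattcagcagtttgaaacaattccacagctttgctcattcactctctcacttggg
Podn, chr4:108031905-108032204, minus strand: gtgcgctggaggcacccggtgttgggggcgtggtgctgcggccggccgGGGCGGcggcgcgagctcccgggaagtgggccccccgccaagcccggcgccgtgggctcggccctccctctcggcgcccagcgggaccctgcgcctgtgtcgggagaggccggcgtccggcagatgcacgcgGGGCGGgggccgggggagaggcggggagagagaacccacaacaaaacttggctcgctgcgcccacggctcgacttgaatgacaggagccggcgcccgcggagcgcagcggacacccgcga

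Base composition separated these windows. The Aspn, Omd and Ogn promoters were 31.0%, 37.7% and 42.3% GC with 3, 1 and 4 CpG dinucleotides, and the upstream of 2 Podn promoters was 77.0% GC with 41, beside medians of 52.7% and 7 over the 32817 mouse promoters of that table. TATAAA was in the Aspn window at positions -207 and -178 from the start and in the Ogn window at -229 and -227, which overlap, far from the usual place of a TATA box, and 13.6% of all promoters hold it. GGGCGG was in the Podn window at -202 and -70 and is in 35.6% of all promoters. CANNTG, the E-box, was in the Aspn, Ogn and Podn windows but not in that of Omd and is in 72.3% of all promoters. TGANTCA, the AP-1 motif, was in none of the 4 windows and is in 7.81% of all promoters. The table matched 7 of the 9 members, and Dcn and Lum had no entry.

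In whole hearts Aspn, Ogn and, less closely, Omd stood higher where low-GC genes of the library did, and Dcn did not. Their transcripts are 34.3% (Aspn), 36.1% (Omd) and 36.3% (Ogn) GC. In the 4-week hearts Ogn was at 103, 17.3 and 100 CPM, Aspn at 29.6, 5.02 and 60.8 CPM and Omd at 0.61, 0 and 1.68 CPM, and replicate 2, in which low-GC genes stood lowest, was the lowest for all 3. Ecm2, whose transcript is 39.1% GC, was at 18.0 to 21.8 CPM in the same hearts. Over the 15 hearts the correlation of log2(CPM + 1) with the low-GC measure was 0.79 for Aspn, 0.67 for Ogn and 0.43 for Omd. It was 0.04 for Ecm2 and -0.19 for Dcn, whose transcript is 37.4% GC. For the other members it ran from -0.56 (Bgn) to -0.03 (Fmod). The measure was 0.31 to 0.59 in the P1 hearts. These correlations are described without a test, and the part of age in them was not tested. Replicate 2 was not the lowest 4-week heart for Dcn (421, 423 and 541 CPM). Ogn was not called from P1 to 4 weeks in hearts (0.55 ± 0.45, adjusted p = 0.452). Without replicate 2 its change was 1.01 (adjusted p = 0.0197), and with length and GC offsets it was 0.88 (adjusted p = 0.0135). From P1 to 1.5 years the change of Ogn was 0.75 ± 0.45 (adjusted p = 0.216), and 1.16 (adjusted p = 0.00135) with the offsets. Without replicate 2 the number of members called at 4 weeks against P1 was 6, with Ogn added.

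**Figure D4:**
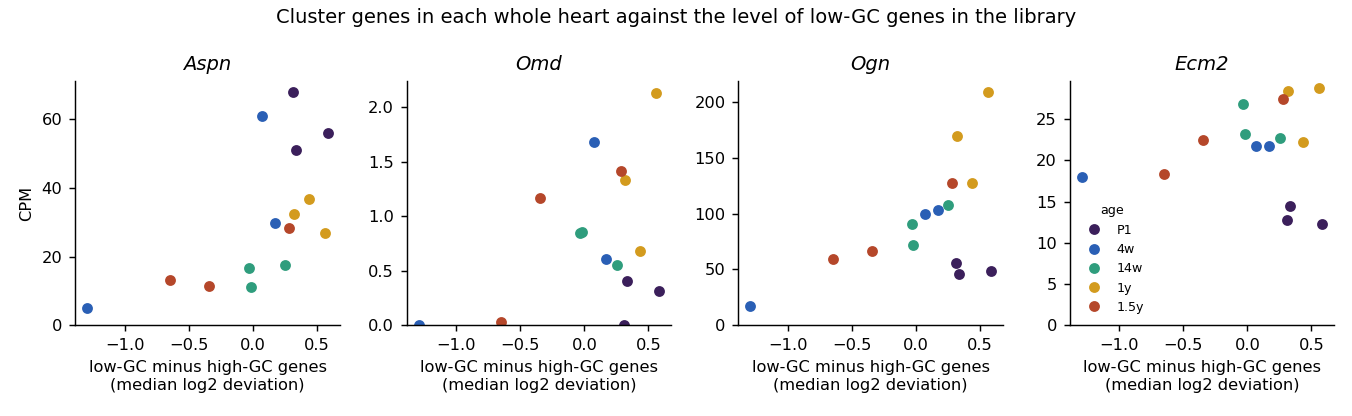
CPM in each of the 15 whole hearts (vertical axes) against the median log2 deviation of low-GC genes less that of high-GC genes in the same library (horizontal axes), coloured by age, for Aspn, Omd, Ogn and Ecm2. Replicate 2 at 4w lies at -1.29 and is lowest for Ogn and Aspn, while Ecm2 follows age, with P1 lowest.

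Most members were higher in the sorted cells than in whole hearts. Scaled over both tissues together, 7 of 9 members were higher in fibroblasts than in hearts at P1, by 3.17 ± 0.43 (Ogn) to 4.52 ± 0.23 (Prelp) on the log2 scale, where 13.6% of all genes were higher and 18.7% lower. Podn (0.39 ± 0.42, adjusted p = 0.533) and Fmod (0.93 ± 0.40, adjusted p = 0.0837) were not called, and their P1 samples overlapped between the tissues. Omd (3.76, adjusted p = 0.0204) lost its call with a replicate block (4.41, adjusted p = 0.165) and without any of 3 single P1 samples (adjusted p from 0.0506 to 0.0631). The study describes the hearts as the source of the sorted cells, but the labels do not tie samples of the tissues to each other. Fmod was called in several alternatives, and Podn without P1 fibroblast replicate 1 was -0.82 (adjusted p = 0.0389), that is, lower in the sorted cells. At 1.5 years all 9 were higher in fibroblasts, where 21.0% of genes were higher and 17.9% lower, with mean ratios from 4.84 (Fmod) to 16.1 (Omd). The ratio of Dcn was 11.4 at P1 and 14.0 at 1.5 years, that of Podn 1.30 and 9.24.

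The change with age itself differed between the tissues for 2 members. The rise of Podn from P1 to 1.5 years was larger in fibroblasts by 2.82 ± 0.61 (interaction, adjusted p = 0.0033), where 7.88% of all genes changed more and 5.77% less in fibroblasts. The median difference over all genes was 0.32 there, and 0.73 when libraries were scaled by their totals alone. Fmod rose from 4 to 14 weeks in fibroblasts and was 0.42 ± 0.44 lower in hearts (fitted change -0.42), a difference of 2.73 ± 0.60 (adjusted p = 0.0323), where 0.407% and 0.286% of genes differed. The Fmod call was lost without replicate 2 of the 4-week hearts (2.28, adjusted p = 0.0826) and in several other fits that left out 1 sample. For P1 to 4 weeks edgeR called 0 members (2 at an unadjusted p under 0.05, and 1, Prelp, with DESeq2), where 3.18% and 3.96% of genes differed, and Podn was nearest at 1.70 ± 0.58 (adjusted p = 0.0813). That difference was 2.91 (adjusted p = 4.60e-05) without P1 fibroblast replicate 1. For Prelp the difference from P1 to 1.5 years was -0.69 ± 0.30 (adjusted p = 0.134), and it was called with DESeq2 (adjusted p = 0.0131), with median-of-ratios scaling and with the offsets.

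Collagens that these proteins bind were lower in sum at 1.5 years than at P1. The 10 genes summed were Col1a1, Col1a2, Col3a1, Col5a1, Col5a2, Col6a1, Col6a2, Col6a3, Col12a1 and Col14a1. Those of types VI, XII and XIV are not fibrillar. The sum of all 10 was 68348 to 85729 CPM in the P1 fibroblasts and 16618 to 25496 CPM at 1.5 years. The sum of the 9 SLRPs went from 6763 to 7737 CPM to 23582 to 27860 CPM. There were thus 0.081 to 0.11 SLRP reads per collagen read at P1, 0.25 to 0.27 at 4 weeks and 0.95 to 1.03 at 14 weeks. The ratio was 0.58 to 0.72 at 1 year and 1.09 to 1.42 at 1.5 years. The 14-week fibroblast libraries are those in which low-GC genes stood high. The sums were not recomputed with length and GC offsets, and the part of GC in the ratio was not tested. In hearts the ratio was 0.17 to 0.24 at P1, 0.51 to 0.55 at 4 weeks and 1.22 to 2.58 at the later ages. No age group overlapped P1 in either tissue. Of the 10 collagen genes, 8 fell from P1 to 1.5 years in each tissue and none rose (median change -1.83 in fibroblasts and -1.76 in hearts). Of all genes, 6.46% fell and 9.86% rose in fibroblasts, and 16.3% fell and 15.6% rose in hearts. From 4 to 14 weeks 8 fell in each tissue, beside 2.08% of all genes in fibroblasts and 0.850% in hearts. From P1 to 4 weeks 1 rose and 3 fell in fibroblasts, beside 9.28% and 6.20% of all genes. In hearts 2 rose and 2 fell, beside 12.1% and 6.10% of all genes. The summed collagens of the P1 hearts (2301 to 2965 CPM) and 4-week hearts (1866 to 2511 CPM) overlapped. Col12a1, a collagen on the surface of fibrils, fell furthest, by -3.41 ± 0.35 in fibroblasts (adjusted p = 2.28e-05) and -4.33 ± 1.06 in hearts (adjusted p = 0.005).

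**Figure D5:**
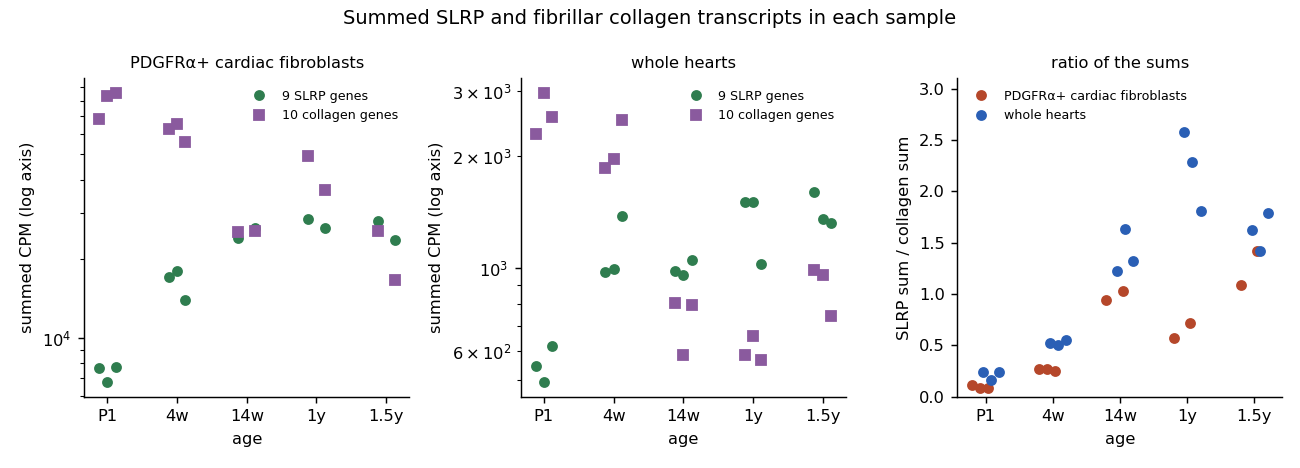
Summed CPM of the 9 SLRP and 10 collagen genes in each sample by age (left and middle, log axes) and the ratio of the sums (right, linear axis from 0). In fibroblasts the ratio goes from 0.081 to 0.11 at P1 to 1.09 to 1.42 at 1.5y, as the sums approach each other and cross.

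Of 8 other genes of the family, all 8 were tested in fibroblasts and 6 in hearts. In fibroblasts 4 rose from P1 to 4 weeks (Ecm2, Tsku, Epyc and Chad) and 3 from P1 to 1.5 years (Ecm2, Epyc and Chad), and none fell. Of all genes, 9.28% rose and 6.20% fell in the first comparison, and 9.86% rose and 6.46% fell in the second. Ecm2, the upstream neighbour of Aspn, went from 98.7 ± 7.8 CPM (SD, n = 3) at P1 to 212 ± 39 (n = 3) at 4 weeks and 325 ± 35 (n = 2) at 1.5 years, a rise of 1.72 ± 0.15 from P1 (adjusted p = 6.56e-06), and in hearts by 0.79 ± 0.20 (adjusted p = 0.00561). It was the only gene of this group called in hearts, where 15.6% of all genes rose from P1 to 1.5 years. Its rise was larger in fibroblasts (interaction 0.90 ± 0.25, adjusted p = 0.0162). Tsku stood at 51.0 ± 16.1 CPM (n = 3) at P1 and 85.1 ± 12.7 (n = 3) at 4 weeks (0.74 ± 0.22, adjusted p = 0.0391). Epyc, mainly a cartilage transcript, was at 0.43 ± 0.40 CPM at P1 and 9.35 ± 3.85 at 4 weeks (n = 3 each), and 40.6% of its exon bases overlap a non-coding gene on the other strand. Chad was near 0 at P1, so its fitted fold depends on the prior count, and was highest at 14 weeks (12.1 ± 8.1 CPM, n = 2). Among the means of Kera, Optc, Nyx and Podnl1 by age and tissue, the highest was 1.00 CPM (Nyx, 4-week fibroblasts).

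The enzymes that cut or mature SLRPs and their collagen partners moved in part. Of 12 such genes, 5 rose and 1 fell from P1 to 4 weeks in fibroblasts, beside 9.28% and 6.20% of all genes. From P1 to 1.5 years 6 rose and none fell, beside 9.86% and 6.46% of all genes. Mmp3, stromelysin, rose furthest there (13.07 ± 0.64, adjusted p = 4.34e-08), from 0.020 CPM at P1 to 174 CPM at 1.5 years on average (a fitted fold that depends on the prior count), followed by Pcolce2 (6.10), an enhancer of procollagen processing. In hearts 3 rose and 3 fell, beside 15.6% and 16.3% of all genes. Pcolce2 was highest there among genes of at least 10 CPM (3.35 ± 0.42, adjusted p = 1.41e-05) and Adamts1 lowest (-1.36 ± 0.23, adjusted p = 0.000296). Adamts1 rose in fibroblasts (1.40), and the difference was called (interaction 2.74).

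Among 28 tested genes that build the glycosaminoglycan chains, 6 rose and 1 fell from P1 to 4 weeks in fibroblasts, beside 9.28% and 6.20% of all genes. From P1 to 1.5 years 4 rose and 1 fell, beside 9.86% and 6.46% of all genes. Csgalnact1, which starts chondroitin chains, rose most (1.75 ± 0.47, adjusted p = 0.0213), and Xylt1, which adds the first sugar to the core protein, rose by 1.07. Chsy1, a chondroitin synthase, fell in both tissues (-1.39 ± 0.24, adjusted p = 0.00125 in fibroblasts, and -1.49 ± 0.30, adjusted p = 0.00102 in hearts). In hearts only B3gat3 rose (0.95 ± 0.17, adjusted p = 0.000516) and 2 genes fell, beside 15.6% and 16.3% of all genes.

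Of 16 ligands and receptors that SLRPs are known to bind, 10 rose and 3 fell from P1 to 4 weeks in fibroblasts. Of all genes, 9.28% rose and 6.20% fell there. From P1 to 1.5 years 8 rose and 2 fell, beside 9.86% and 6.46% of all genes. Ccn2, which binds decorin, rose by 3.00 ± 0.28 (adjusted p = 1.05e-05), whereas it fell in hearts (-1.62), a difference of 4.59 between the tissues. Tlr2, a receptor of soluble biglycan, rose by 1.64 in fibroblasts and 1.53 in hearts, and Lrp1, an endocytic receptor of decorin, by 2.14 and 1.65 ± 0.22. Tgfb1 rose by 0.72 and 0.85. Ccn4 fell furthest in both tissues (-4.36 ± 0.97, adjusted p = 0.00752, and -5.66 ± 0.98, adjusted p = 0.000341). In hearts 5 rose and 4 fell, beside 15.6% and 16.3% of all genes.

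Some genes on lists of cell markers were also called from P1 to 1.5 years. Of all genes tested, 9.86% rose and 6.46% fell in fibroblasts, and 15.6% rose and 16.3% fell in hearts. The heart counts of endothelial genes and of valve and tendon markers were near those shares. In fibroblasts 6 of 9 cardiomyocyte markers were lower at 1.5 years than at P1, led by Myh7 (-5.04 ± 1.35), and 3 of 8 leukocyte markers fell, led by C1qb (-1.81 ± 0.57). Of 8 smooth muscle markers 2 rose, with Myh11 highest (4.13 ± 0.70), and 2 fell, with Cspg4 lowest (-2.17 ± 0.40), while 0 of 9 endothelial and 0 of 5 tested epicardial markers were called. Of 8 valve and tendon markers 2 rose, led by Comp (7.56 ± 1.23), from 1.72 to 333 CPM on average. Among 8 fibroblast markers 6 rose, led by Ly6a (8.31 ± 0.69), and Thy1 fell (-1.15 ± 0.26). In hearts all 8 leukocyte markers rose, led by Lyz2 (4.07 ± 0.20), 5 of 8 fibroblast markers rose, led by Pi16 (4.15 ± 0.23), and 6 of 9 cardiomyocyte markers rose, led by Tnni3 (2.12 ± 0.21), while Myh7 fell (-3.43 ± 0.52). There 2 of 8 smooth muscle markers rose, led by Rgs5 (1.52 ± 0.25), and 4 fell, led by Acta2 (-2.67 ± 0.22). Cdh5 was the only endothelial gene called (-0.72 ± 0.20), and Upk3b was lowest of 2 epicardial genes that fell (-1.26 ± 0.43), and 1 of 8 valve and tendon markers rose and 1 fell. Of 5 adipocyte markers only Adipoq had a row, at most 1.99 CPM. The part of these shifts in the SLRP changes was not tested.

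The genes whose pattern was most like each member were sought among genes with a mean of at least 10 CPM. In fibroblasts (12 samples) the closest were Fxyd5 to Dcn (Pearson r of log2 CPM = 0.99), Csf1 to Bgn (0.99), Slc44a1 to Lum (0.98), Eif3j1 to Fmod (0.93), Gstm1 to Ogn (0.92), Akr1b3 to Omd (0.96), Plxdc2 to Prelp (0.99), Kdm5b to Aspn (0.97) and Plpp3 to Podn (0.99). Ecm2 was second for Dcn (0.99). In hearts (15 samples) they were Myoc to Dcn (0.98), Adipor1 to Bgn (0.91), Dpt to Lum (0.88), Myl4 to Fmod (0.77), Trdn to Ogn (0.94), D3Ertd751e to Omd (0.90), Smoc2 to Prelp (0.98), Zdhhc20 to Aspn (0.93) and Csf1r to Podn (0.97). Second to Fmod in hearts was Myl7 (0.76), named after its value was seen: Myl4 and Myl7 are both known as atrial light chains, and Fmod was among the lowest members in hearts.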

How the data were processed

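The authors deposited raw read counts per gene symbol for 12 sorted fibroblast samples and 15 whole hearts. Per the labels and the study's methods, polyA RNA was sequenced as single-end reads, mapped to mm10 with STAR 2.5.3a and counted per gene by STAR. The annotation, and whether counting used strand, are not given in the sources used here. Each value is 1 column of 1 sample, without pooling of columns. Samples were grouped by tissue and age from the labels.

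Genes were filtered with edgeR's filterByExpr (18759 genes kept in fibroblasts, 17995 in hearts, 20650 jointly), scaled by TMM within each tissue (jointly for tissue comparisons), and tested with edgeR 4.0.16 quasi-likelihood fits (glmQLFit and glmQLFTest, R 4.3.3) with 1 mean per group. P-values were adjusted by Benjamini-Hochberg over all genes of a fit. SE is the absolute log2 fold change over the square root of F. Coordinates, exon lengths and GC came from GENCODE M21 on GRCm38, which held 95.4% of the symbols, and promoters from RefSeq. Code was tested on simulated data. Alternatives were DESeq2 1.42.0, median-of-ratios or total-count scaling, no filter, at least 10 counts in every sample, removal of mitochondrial genes, offsets for transcript length and GC, the 2 ages alone, a replicate block, and each sample left out. The low-GC measure was computed over genes with a mean above 1 CPM.

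The 9 members and all gene lists were chosen with earlier results of these data known. Named were the members, other family genes, the called list genes with the largest rise and fall from P1 to 1.5 years with at least 10 CPM at 1 age, the gene most like each member, and neighbours; Tcf21, Pdgfra, Xist and Ddx3y check the labels. Further names were chosen after their values were seen. Of 152 list genes, 5 had no row. No 2 libraries of a group were alike within sampling noise. At these depths counting error is small beside the spread between samples, except for genes under 1 CPM.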

Additional observations from a re-analysis of the deposited data

Results flagged for a closer look

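The change of 2 members differed between sorted fibroblasts and whole hearts by the interaction test. For Podn from P1 to 1.5 years the fibroblast change exceeded that of the hearts by 2.82 on the log2 scale (adjusted p = 0.0033, edgeR's quasi-likelihood test), and the call held under every alternative run. For Fmod from 4 to 14 weeks the difference was 2.73 (adjusted p = 0.0323). That call was lost in 7 of 27 fits that left out 1 sample, among them each 14-week fibroblast sample (2.32 with adjusted p = 0.251, and 3.05 with adjusted p = 0.0577) and replicate 2 of the 4-week hearts (2.28, adjusted p = 0.0826).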

How the results depend on the processing

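Of 1048 member changes recomputed under other settings, 1000 kept their side of the threshold, as did 2368 of 2430 with 1 sample left out. Of these, 39 and 79 changed sign without being called. Both totals include changes that were not called in the main fit, and the second includes fits without a sample of an age not compared. They are thus no measure of how well the calls held. Lum in hearts at 4 weeks against P1, for example, was called in 10 of 24 alternatives. The 1 change of sign that was called was Podn in fibroblasts against hearts at P1, -0.82 without P1 fibroblast replicate 1 (up to 0.81 with another sample left out). Some counts of members called moved, and the number of all genes called in the same fit is in brackets. With offsets for length and GC 1 member was called at 14 against 4 weeks in fibroblasts (349) and 1 in hearts (361). In hearts of 1.5 years against 14 weeks it was 1 (802). For the interactions of P1 with 4 weeks and with 1.5 years it was 2 (1783) and 2 (2872). DESeq2 called 5 members in fibroblasts at 14 against 4 weeks (1541) and 1 at 1.5 years against 14 weeks (1265). For the 3 interactions in order of age it called 1 (2794), 2 (722) and 2 (3846). With library size only the count was 3 in hearts at 4 weeks against P1 (4777) and 1 at 14 against 4 weeks (496). For the interactions that scaling gave 1 (2111), 2 (264) and 3 (3728). Median-of-ratios scaling gave 1 (1670) and 2 (2746) for the interactions with P1. When only the 2 ages were fitted, 1 year against 14 weeks gave 2 members in fibroblasts (2004) and 3 in hearts (1458). In the fits with all ages 334 and 175 genes were called there. With a replicate block in edgeR's test the hearts of 1.5 years against 14 weeks gave 1 (2042). Lum in hearts at 4 weeks against P1 then had adjusted p = 0.0620, and Omd in fibroblasts against hearts at P1 had adjusted p = 0.165. Aspn across all ages in hearts had adjusted p = 0.0524. The block changed no other call of a member. Between samples of the same replicate number, correlations of their deviations exceeded 0.1 in 3 of 30 pairs of hearts and 0 of 6 between tissues. The largest in hearts was 0.40. In fibroblasts 2 of 7 pairs exceeded 0.1, both at 0.22, because deviations within a group of 2 mirror each other. With 2 or 3 samples per group this check cannot exclude that replicate numbers pair samples.

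With 1 sample left out, counts ran from 1 to 5 (fibroblasts, 14 against 4 weeks), 0 to 1 (hearts, 14 against 4 weeks), 1 to 2 (hearts, 1.5 years against 14 weeks), and 0 to 1, 0 to 2 and 1 to 2 for the interactions. The fibroblast count of 14 against 4 weeks was 5 without P1 replicate 1 and 1 without either 14-week sample, where the lone sample is assumed to vary like the others. In these cases the cause was not tested. The filter of 10 counts was not applied to the fits over both tissues. Depth limits Omd in hearts (0 to 119 counts), and groups of 2 limit the later fibroblast ages.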
